A study of Rattus norvegicus with 304 samples.

Results

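Pmm1 and Mawbp are 2 of the 50 genes whose messenger RNA was measured in rat liver after the dioxin TCDD, and both were chosen by gene symbol because they responded to TCDD to a middling extent in these same data. Pmm1 encodes a phosphomannomutase, an enzyme that interconverts mannose phosphates on the way to GDP-mannose, the sugar donor that cells use to build glycans on proteins and lipids. Mawbp, the MAWD binding protein, carries a phenazine biosynthesis-like domain, and its current symbol in the RefSeq rat table is Pbld1. TCDD binds the aryl hydrocarbon receptor (AHR), which pairs with its partner ARNT and binds DNA at xenobiotic response elements built around the letters GCGTG. Textbook targets of this receptor in liver are the cytochromes of the Cyp1 family, the quinone reductase Nqo1 and the aldehyde dehydrogenase Aldh3a1.

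Male rats 10 to 12 weeks old of 2 strains received a single dose of TCDD or of the corn oil vehicle by oral gavage. The labels call Long-Evans sensitive and Han/Wistar resistant to TCDD, and Han/Wistar resistance is known to go with an altered AHR. TCDD was given at 0.001 to 1000 µg/kg to Long-Evans and at 0.001 to 3000 µg/kg to Han/Wistar rats with liver taken at 19 h, or at 100 µg/kg with liver taken at 3 to 240 h in Long-Evans and at 1.5 to 384 h in Han/Wistar. Corn oil groups were collected at 19, 96 and 240 h in Long-Evans and at 1.5, 19, 96, 240 and 384 h in Han/Wistar. Liver RNA was run by real-time PCR on the OpenArray, whose plates carry dried assays in very small through-holes, and on the 7900HT, an ordinary plate-based cycler, in 150 and 154 samples, each forming 36 groups of 3 to 7 rats. Of the sample titles 150 were on both instruments, so the instruments are not independent of each other.

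The authors' deposited table of each instrument gives 1 log2 fold change per gene and group, relative to the strain's own corn oil group at 19 h, which is therefore 0. The log base is taken to be log2, because no header states it. The OpenArray covers 49 targets and the 7900HT covers 39, with both genes listed in every group of each. No value per animal was used, and the depth behind a value is unknown. The spread between groups under corn oil therefore serves as the yardstick for every value. Because Pmm1 and Mawbp were chosen for their response, their rise over dose and time is given as a description, with no test read for them. Shares over all targets do count both genes. Of their values only the difference between the strains is tested. None of the 18 cell type markers listed for liver was among the measured targets, so the tissue could not be checked by them.

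The promoters of both genes are shown because GCGTG is the core that the AHR with ARNT binds. They are RefSeq sequences of the GRCr8 build, 300 bases each around the annotated start, written in the direction of the gene with each GCGTG core in capitals, which reads CACGC where it lies on the opposite strand. Pmm1 lies on the minus strand with its window at chr7:115356975-115357274, and Mawbp, matched through the symbol Pbld1, lies on the minus strand with its window at chr20:25564252-25564551.
Pmm1: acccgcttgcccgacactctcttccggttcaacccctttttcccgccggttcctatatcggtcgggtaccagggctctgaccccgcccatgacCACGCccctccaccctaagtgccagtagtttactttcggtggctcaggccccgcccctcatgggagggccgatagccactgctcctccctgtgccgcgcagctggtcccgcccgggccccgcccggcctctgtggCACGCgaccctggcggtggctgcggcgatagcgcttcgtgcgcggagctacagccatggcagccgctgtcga
Mawbp: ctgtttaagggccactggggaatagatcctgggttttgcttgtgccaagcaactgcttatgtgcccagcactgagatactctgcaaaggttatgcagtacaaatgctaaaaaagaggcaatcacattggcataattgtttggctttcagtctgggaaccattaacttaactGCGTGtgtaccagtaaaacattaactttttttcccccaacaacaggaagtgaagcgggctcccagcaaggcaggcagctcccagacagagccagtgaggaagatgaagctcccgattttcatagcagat
The Pmm1 window holds 2 cores, both on the opposite strand, at 157 to 153 and at 22 to 18 bases before the start. The core nearer to the start is part of the 1 match there to the longer motif TNGCGTG. In the Mawbp window 1 core lies on the strand of the gene, 79 to 75 bases before the start, and TNGCGTG has 0 matches. Searched on both strands, GCGTG occurs in 29.7% and TNGCGTG in 4.89% of the 33469 rat promoter windows of the same length. A match of letters is a description and shows no binding.

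At 19 h on the OpenArray both genes tended to be higher at higher doses of TCDD in both strains, and lay between 1.22 and 1.62 log2 units at 50 µg/kg or more. In whole liver, more RNA per cell cannot be told apart from more cells that hold it. For Long-Evans liver the authors' deposited table gives Pmm1 as -0.14, 0.01, 0.56 and 0.25 at 0.001, 0.01, 0.1 and 1 µg/kg, then as 1.05, 1.62, 1.33 and 1.45 at 10, 50, 100 and 1000 µg/kg. For Han/Wistar liver the authors' deposited table gives Pmm1 as 0.19, 0.26, 0.21 and 0.63 at 0.001, 0.01, 0.1 and 1 µg/kg, then as 0.99, 1.22, 1.47 and 1.48 at 10, 100, 1000 and 3000 µg/kg. From 10 µg/kg upward every Pmm1 value of both strains was above every value at 1 µg/kg or less. Under corn oil the authors' deposited table has Pmm1 at -0.32 and -0.18 at 96 and 240 h in Long-Evans, and between -0.31 and -0.10 at the 4 times other than 19 h in Han/Wistar. Above all corn oil groups of their strain were 7 of 8 doses in Long-Evans, the exception being 0.001 µg/kg, and 8 of 8 in Han/Wistar. The highest corn oil group of each strain was that at 19 h, 0 by definition, which 0.01 at 0.01 µg/kg in Long-Evans barely exceeded. For counts of doses above corn oil no share over all targets was taken, so no response at low doses is read from them. Spearman's rho of Pmm1 against dose was 0.90 in Long-Evans and 0.98 in Han/Wistar over 8 doses each, given as a description.

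Mawbp gave a similar order by dose. Its Long-Evans values by the authors' deposited table were 0.08, 0.11, 0.43 and 0.79 at 0.001, 0.01, 0.1 and 1 µg/kg, then 0.98, 1.44, 1.25 and 1.26 at 10, 50, 100 and 1000 µg/kg. The Han/Wistar values by the authors' deposited table were 0.33, 0.22, 0.39 and 0.89 at 0.001, 0.01, 0.1 and 1 µg/kg, then 1.31, 1.23, 1.52 and 1.34 at 10, 100, 1000 and 3000 µg/kg. All 8 doses of each strain were above every corn oil group of that strain. Corn oil values ran from -0.24 to 0.00 in Long-Evans and from -0.03 to 0.20 in Han/Wistar. The margins were small at the lowest doses, as with 0.22 at 0.01 µg/kg in Han/Wistar. The rho against dose was 0.93 in each strain. Both genes thus ordered the doses nearly alike, and for each gene the doses below 1 µg/kg gave the 3 lowest values of the Han/Wistar series.

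**Figure D1:**
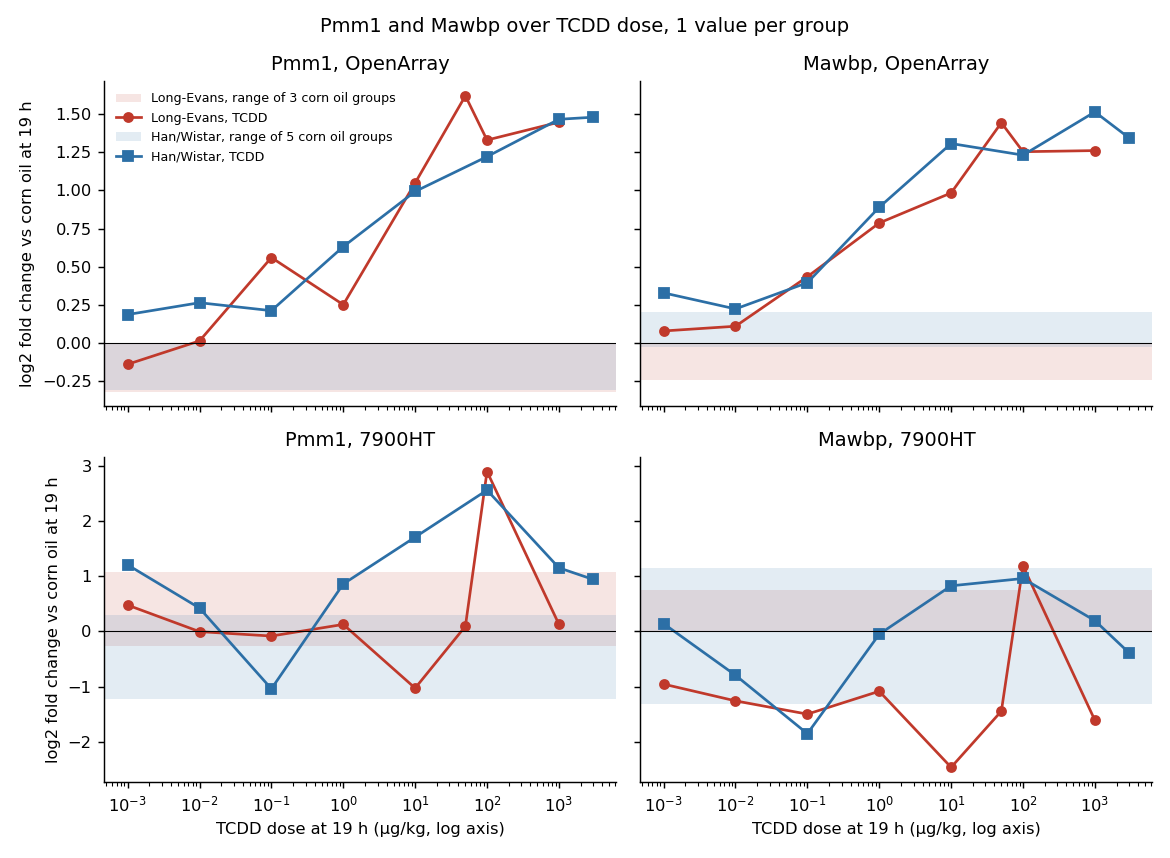
Each panel plots the deposited log2 fold change (vertical axis) against the TCDD dose at 19 h in µg/kg (horizontal log axis), with Long-Evans as red circles, Han/Wistar as blue squares, 1 point per group, and shaded bands for the range of the corn oil groups of each strain. On the OpenArray (upper panels) both genes tend to rise with dose, Pmm1 in Long-Evans from inside its band and the other lines from above theirs. On the 7900HT (lower panels) Pmm1 is above its band at 1 of 8 doses in Long-Evans and 7 of 8 in Han/Wistar. Mawbp is above its band there at 1 of 8 doses in Long-Evans and 0 of 8 in Han/Wistar.

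At 100 µg/kg and 19 h the OpenArray values correspond to linear folds of 2.52 in Long-Evans and 2.33 in Han/Wistar for Pmm1, and of 2.39 in Long-Evans and 2.35 in Han/Wistar for Mawbp. Counted from the highest of 49 targets, Pmm1 was in place 16 in Long-Evans and 12 in Han/Wistar, and Mawbp in place 17 in Long-Evans and 11 in Han/Wistar. The middle of the panel was itself shifted at this dose, by a median over all targets of 0.59 in Long-Evans and 0.23 in Han/Wistar, and with each group centred on the median of the 47 targets listed in every group, which was 0.56 in Long-Evans and 0.23 in Han/Wistar, the 2 genes stood at 0.69 to 1.00. Centred on the mean of the same 47 targets, which the strongest targets pull up, they stood at 0.27 to 0.38. Strong AHR targets were far above them, since the authors' deposited table has the cytochrome Cyp1a1 at 9.47 for Long-Evans and 9.99 for Han/Wistar. Nqo1 had 3.47 for Long-Evans and 3.78 for Han/Wistar, also by the authors' deposited table.

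Of the 15 genes listed as the AHR battery, 12 were measured on the OpenArray. The list was chosen with earlier results of these data known, so counts over it are a description and no independent support. In Long-Evans 11 of the 12 passed the dose trend test, an exact two-sided permutation test of rho with Benjamini-Hochberg adjustment, with 8 higher and 3 lower at higher doses. Of all 49 targets, Pmm1 and Mawbp included, 79.6% passed it in that strain, 53.1% as higher and 26.5% as lower. In Han/Wistar 9 of the 12 passed, 6 higher and 3 lower, beside 59.2% of all targets, 38.8% as higher and 20.4% as lower. Those that fell were Inmt, an indolethylamine methyltransferase, Fmo1, a flavin monooxygenase, and Ugt1a1, a glucuronosyltransferase, in both strains. The authors' deposited table has Inmt at -3.95 for Long-Evans and -4.47 for Han/Wistar after 100 µg/kg, opposite in sign to Pmm1 and Mawbp. The lists for mannose metabolism, with 16 genes, and for the paralogues and partners of Mawbp, with 4, had 0 members on either instrument, so neither gene could be set beside its own pathway. The number of targets that passed moved with single dose groups, since without 1 µg/kg 24 targets in all passed in Long-Evans, against 39 with it, and 7 in Han/Wistar, against 29 with it.

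Over time the 2 genes followed different courses on the OpenArray. From 3 h after 100 µg/kg Pmm1 was above Mawbp until 10 h in both strains, and for Long-Evans the authors' deposited table gives 1.94, 1.88, 2.15, 1.33, 2.26 and 3.01 at 3, 6, 10, 19, 96 and 240 h. For Han/Wistar the authors' deposited table gives 0.60, 1.67, 1.48, 1.75, 1.22, 0.79, 1.07 and 1.38 at 1.5, 3, 6, 10, 19, 96, 240 and 384 h. Up to 19 h Pmm1 was highest at 10 h in both strains, but above 3 h by only 0.21 in Long-Evans and 0.08 in Han/Wistar. These steps were smaller than the corn oil ranges of 0.32 in Long-Evans and 0.31 in Han/Wistar. No corn oil group was taken at 3, 6 or 10 h. At 19 h Pmm1 was lower in both strains, and only the Long-Evans values climbed late past that of 10 h. Every TCDD time was above every corn oil group of its strain, at 6 of 6 times in Long-Evans and 8 of 8 in Han/Wistar. The same held for 51.0% of 49 targets in Long-Evans and for 10.6% of 47 in Han/Wistar, and since Pmm1 was chosen for its response nothing is read from this.

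Mawbp was lower than Pmm1 at 3 h, and from 96 h its values lay closer together between the strains than those of Pmm1. In Long-Evans liver it had, by the authors' deposited table, 0.54, 1.19, 1.33, 1.25, 1.70 and 1.50 at 3, 6, 10, 19, 96 and 240 h. Han/Wistar liver had, by the authors' deposited table, 0.63, 0.71, 1.04, 1.33, 1.23, 1.40, 1.78 and 1.68 at 1.5, 3, 6, 10, 19, 96, 240 and 384 h. At 3 h Mawbp was therefore lower than at any later time in Long-Evans, and in Han/Wistar only the value at 1.5 h was lower. All 6 Long-Evans and all 8 Han/Wistar times were above every corn oil group of the strain.

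**Figure D2:**
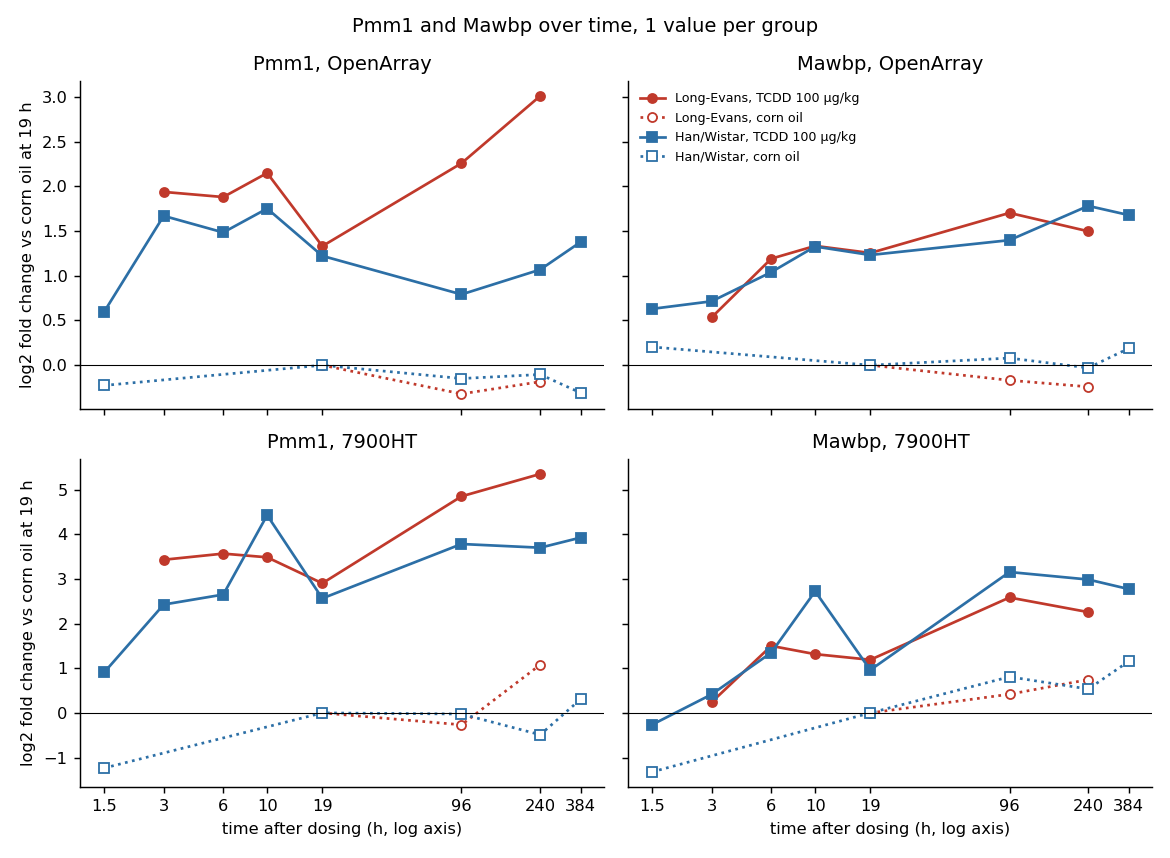
Deposited log2 fold change (vertical axis) against hours after dosing (horizontal log axis), with filled symbols and solid lines for TCDD at 100 µg/kg, open symbols and dotted lines for corn oil, red for Long-Evans, blue for Han/Wistar and 1 point per group. On the OpenArray (upper panels) the Pmm1 lines part after 19 h, to 3.01 for Long-Evans and 1.07 for Han/Wistar at 240 h, while the Mawbp lines stay close, with 1.50 in Long-Evans and 1.78 in Han/Wistar.

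Averaged over the time course and taken over the mean of the corn oil groups, Pmm1 was higher under TCDD by 2.26 in Long-Evans liver and by 1.40 in Han/Wistar liver, and Mawbp by 1.39 in Long-Evans liver and by 1.14 in Han/Wistar liver. The SD over corn oil groups was 0.16 for Pmm1 and 0.12 for Mawbp in Long-Evans (n = 3), and 0.12 for Pmm1 and 0.11 for Mawbp in Han/Wistar (n = 5). The median target had an SD of 0.14 in Long-Evans and 0.21 in Han/Wistar, so both genes varied less than the median target under corn oil except Pmm1 in Long-Evans. With each group centred on the mean of the 47 complete targets the TCDD excess shrank to 1.25 for Pmm1 in Long-Evans, 0.38 for Pmm1 in Han/Wistar, 0.38 for Mawbp in Long-Evans and 0.11 for Mawbp in Han/Wistar. The Han/Wistar corn oil group at 1.5 h, in which the authors' deposited table has Cyp1a1 at 3.47, had Pmm1 at -0.23 and Mawbp at 0.20. At 1.5 h Pmm1 was 0.82 higher under TCDD than under corn oil of the same time. Ordered from the lowest to the highest level over all groups of a strain, few neighbours lay farther apart than the range of the corn oil groups, namely 2 of 15 steps in Long-Evans and 1 of 19 in Han/Wistar for each gene. In Long-Evans the widest step of Pmm1, 0.75, separated the group at 240 h from the next lower one.

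Measured from the corn oil group of the same time, Pmm1 at 96 h was higher by 2.58 in Long-Evans, a linear fold of 5.97, and by 0.94 in Han/Wistar, a fold of 1.92. At 240 h the same difference was 3.20 in Long-Evans, a fold of 9.16, and 1.17 in Han/Wistar, a fold of 2.25. The gap between the strains was 1.64 at 96 h and 2.02 at 240 h, against 0.11 at 19 h. Among 49 targets these gaps were in place 4 from the highest at 96 h and in place 6 at 240 h, where the median target had gaps of 0.22 and 0.58. At 96 h Mawbp was higher by 1.87 in Long-Evans liver and 1.32 in Han/Wistar liver, and at 240 h by 1.74 in Long-Evans liver and 1.81 in Han/Wistar liver. Its gaps of 0.55 and -0.07 were in places 13 and 36 of the 49.

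**Figure D3:**
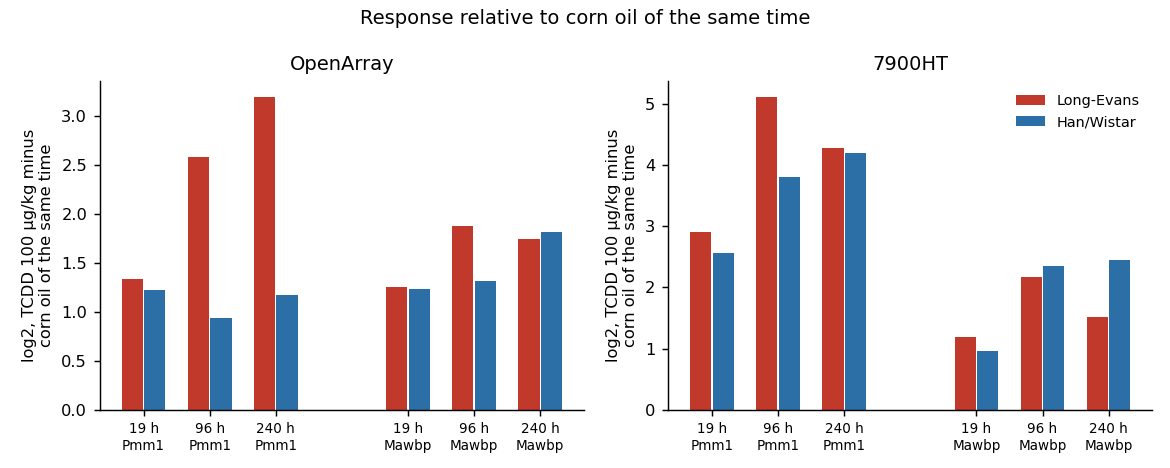
Bars give the log2 value under TCDD at 100 µg/kg minus that under corn oil of the same time (vertical axis, from 0), for Long-Evans in red and Han/Wistar in blue, each from 1 pair of groups and so without error bars, at 19, 96 and 240 h for each gene. On the OpenArray the Pmm1 bars at 240 h are 3.20 in Long-Evans and 1.17 in Han/Wistar, while on the 7900HT they are 4.27 in Long-Evans and 4.19 in Han/Wistar.

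The strain difference was tested as the mean of Long-Evans minus Han/Wistar over the 6 shared times under TCDD, less the same over the 3 shared corn oil times. For Pmm1 on the OpenArray this difference of differences was 0.85, made of 0.76 under TCDD and -0.08 under corn oil. The Pmm1 fold change was higher in Long-Evans at 6 of 6 TCDD times, by 0.11 to 1.94, and at no corn oil time. Each fold change is over the strain's own corn oil group at 19 h, so the corn oil difference at 19 h is 0 by definition. The values do not tell in which strain the level of Pmm1 itself was higher. An exact two-sided permutation test over the 84 splits gave p = 0.0952, and 0.467 after Benjamini-Hochberg adjustment over 49 targets, so the difference did not pass. For Mawbp the difference of differences was 0.16 (exact permutation p = 0.286, adjusted p = 0.608). No target of the 49 passed on the OpenArray, which is 0%, although 6 were below 0.05 without adjustment. The 84 splits allow no p below 0.0119. With adjustment over 49 targets, a target at that floor passes only if many others tie with it there. This test could thus hardly pass any target here, and its outcome does not tell whether the strains differ.

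Over dose the strains were compared by the rho of Long-Evans minus Han/Wistar against the 7 shared doses. The strain difference of Pmm1 gave a rho of 0.36 (exact permutation p = 0.444, adjusted p = 0.821) and that of Mawbp a rho of -0.18 (exact permutation p = 0.713, adjusted p = 0.916). At single doses the Pmm1 difference ran from -0.38 to 0.35, with the Long-Evans fold change the higher at 3 of 7. The Mawbp difference ran from -0.32 to 0.04, with the Long-Evans fold change higher at 2 of 7, and without 1000 µg/kg its rho turned to 0.20. The number of targets that passed was 0 of 48, or 0%, with 5 at an unadjusted p under 0.05 and 1 called when Pearson's r replaced rho. A p that misses the threshold does not show that the strains respond alike.

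On the 7900HT the dose arm did not show the order by dose for either gene as deposited. The Long-Evans values of Pmm1 by the authors' deposited table were 0.48, 0.00, -0.08, 0.13, -1.03, 0.09, 2.90 and 0.13 at 0.001, 0.01, 0.1, 1, 10, 50, 100 and 1000 µg/kg. Its Han/Wistar values by the authors' deposited table were 1.21, 0.42, -1.04, 0.86, 1.71, 2.56, 1.15 and 0.94 at 0.001, 0.01, 0.1, 1, 10, 100, 1000 and 3000 µg/kg. Only the group at 100 µg/kg was above all corn oil groups in Long-Evans, and 7 of 8 doses were in Han/Wistar, where 0.1 µg/kg was the exception. The rho of Pmm1 against dose was 0.24 in Long-Evans and 0.31 in Han/Wistar.

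Mawbp was below 0 at 7 of 8 doses in Long-Evans on the 7900HT, where the authors' deposited table gives -0.96, -1.26, -1.50, -1.09, -2.47, -1.45, 1.19 and -1.61 at 0.001, 0.01, 0.1, 1, 10, 50, 100 and 1000 µg/kg. For Han/Wistar the authors' deposited table gives 0.14, -0.79, -1.86, -0.05, 0.83, 0.96, 0.20 and -0.39 at 0.001, 0.01, 0.1, 1, 10, 100, 1000 and 3000 µg/kg, with 0 of 8 doses above all corn oil groups. The rho of Mawbp was -0.26 in Long-Evans and 0.36 in Han/Wistar. Of the 12 measured genes of the AHR battery 0 passed the dose trend there in Long-Evans, when 0% of 39 targets did, and 3 of the 12 had an unadjusted p under 0.05, as 5 of all 39 had. In Han/Wistar 1 of the 12 passed, when 2.56% of the targets did, namely Cyp1b1 with a rho of 0.95 (exact permutation, adjusted p = 0.0445), and 8 of the 12 had an unadjusted p under 0.05, as 10 of all 39 had. The Han/Wistar rho was 0.90 for Aldh3a1, 0.83 for Nqo1 and 0.76 for Cyp1a1 but 0.05 for the glucuronosyltransferase Ugt1a1, against 0.31 for Pmm1 and 0.36 for Mawbp.

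Other targets were shifted on the 7900HT too. In its table of cycle values 25 targets, Pmm1 and Mawbp among them, have 2 rows and 14 targets have 4, and the median of the 23 other targets with 2 rows was itself between -2.92 and 0.71 over the Long-Evans doses and between -2.18 and -0.67 over the Han/Wistar doses. Its 0.71 belonged to Long-Evans at 100 µg/kg, the same group in which Pmm1 and Mawbp stood highest. In Han/Wistar both genes also stood highest at 100 µg/kg, but there the median was -1.64, lower than at 5 of the 7 other doses. With that median taken off, a scale added after the values had been seen, Pmm1 in Long-Evans ran from 0.99 at 0.001 µg/kg to 2.30 at 1000 µg/kg with a rho of 0.86, and in Han/Wistar between 1.12 and 4.20 with a rho of 0.71. The corn oil groups on this scale were between -0.95 and 1.25 in Long-Evans and between -0.61 and 0.23 in Han/Wistar, so that 7 of 8 Long-Evans and 8 of 8 Han/Wistar doses of Pmm1 were above them. Mawbp on this scale had a rho of 0.90 in Long-Evans and 0.74 in Han/Wistar, with 0 of 8 doses above corn oil in Long-Evans and 6 of 8 in Han/Wistar. Why the other targets shifted was not tested.

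**Figure D4:**
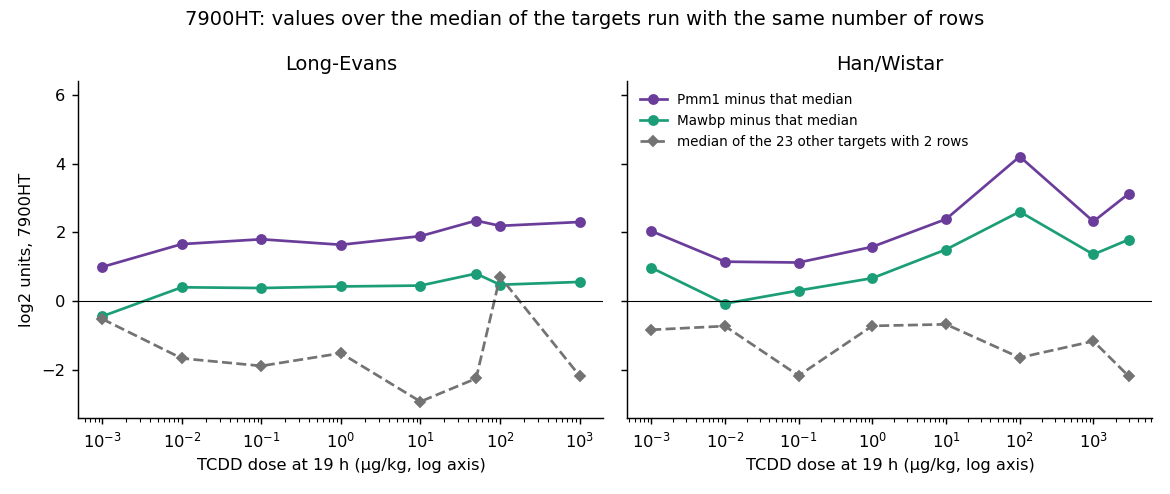
For the 7900HT, Pmm1 (purple) and Mawbp (green) minus the median of the 23 other targets with 2 rows, and that median itself (grey, dashed), all in log2 units on the vertical axis, against the TCDD dose at 19 h in µg/kg (horizontal log axis), with 1 point per group. In Long-Evans the median jumps to 0.71 at 100 µg/kg while Pmm1 over it stays between 0.99 and 2.34.

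In the time course the 7900HT had Pmm1 above every corn oil group at every TCDD time, and Mawbp at most times as deposited. Pmm1 had, by the authors' deposited table, 3.43, 3.57, 3.48, 2.90, 4.85 and 5.35 in Long-Evans at 3, 6, 10, 19, 96 and 240 h. By the authors' deposited table it had 0.91, 2.43, 2.65, 4.43, 2.56, 3.78, 3.70 and 3.93 in Han/Wistar at 1.5, 3, 6, 10, 19, 96, 240 and 384 h. All 6 Long-Evans and all 8 Han/Wistar times were above every corn oil group, as was the case for 15.8% of 38 targets in Long-Evans and 5.26% of 38 in Han/Wistar, and corn oil reached 1.08 at 240 h in Long-Evans and 0.31 at 384 h in Han/Wistar. The mean over the TCDD times exceeded that over corn oil by 3.66 in Long-Evans, where the corn oil SD was 0.71 (n = 3), and by 3.34 in Han/Wistar, where it was 0.60 (n = 5).

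Mawbp on the 7900HT had, by the authors' deposited table, 0.24, 1.50, 1.32, 1.19, 2.58 and 2.26 in Long-Evans at 3, 6, 10, 19, 96 and 240 h. Han/Wistar values of Mawbp by the authors' deposited table were -0.26, 0.42, 1.35, 2.72, 0.96, 3.15, 2.99 and 2.77 at 1.5, 3, 6, 10, 19, 96, 240 and 384 h. As deposited it was again lowest at the first time sampled in each strain. Against corn oil of the same time, however, Mawbp in Han/Wistar was higher by 1.06 at 1.5 h and by 0.96 at 19 h. Of the TCDD times 5 of 6 in Long-Evans and 5 of 8 in Han/Wistar were above every corn oil group. Corn oil reached 0.75 in Long-Evans and 1.15 in Han/Wistar. The mean over the TCDD times exceeded that over corn oil by 1.13 in Long-Evans and 1.53 in Han/Wistar. The corn oil SD was 0.37 in Long-Evans (n = 3) and 0.97 in Han/Wistar (n = 5). With the median of the other 2-row targets taken off, 3 of 6 Long-Evans and 8 of 8 Han/Wistar times were above corn oil.

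On the 7900HT the late strain gap of Pmm1 was present at 96 h but not at 240 h. Against corn oil of the same time, Pmm1 at 96 h was higher by 5.12 in Long-Evans and 3.81 in Han/Wistar, and at 240 h by 4.27 in Long-Evans and 4.19 in Han/Wistar. The gap of 1.31 at 96 h was in place 9 of 38 targets, and that of 0.08 at 240 h in place 24. The median target had gaps of -0.21 at 96 h and 0.48 at 240 h. The gap at 96 h was no wider than the range of Pmm1 over corn oil groups, 1.34 in Long-Evans and 1.54 in Han/Wistar. Under corn oil at 240 h the Pmm1 value itself was 1.08 in Long-Evans and -0.49 in Han/Wistar. Over all shared times the difference of differences was 0.23 for Pmm1 (exact permutation p = 0.762, adjusted p = 0.825) and -0.36 for Mawbp (exact permutation p = 0.393, adjusted p = 0.589). The Pmm1 value had no stable sign, at -0.69 with groups centred on their median and -0.11 without the corn oil groups at 96 h. No target of 39 passed, which is 0%, with 8 at an unadjusted p under 0.05. The same floor on p applied, so here too hardly any target could pass after adjustment. Over dose the strain difference had a rho of -0.36 for Pmm1 (exact permutation p = 0.444, adjusted p = 0.874) and of -0.25 for Mawbp (exact permutation p = 0.595, adjusted p = 0.874), and 0 of 37 targets passed, 0%, with 0 at an unadjusted p under 0.05. Both signs turned with each group centred on its mean, to 0.11 for Pmm1 and 0.18 for Mawbp.

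Set side by side over all groups of a strain, the instruments had a Pearson r of 0.78 in Long-Evans (15 groups) and 0.76 in Han/Wistar (19 groups) for Pmm1, and of 0.32 in Long-Evans and 0.61 in Han/Wistar for Mawbp. These are descriptions, since the groups of a strain share 1 control and most titles were on both instruments. In the time course alone r was 0.90 for Pmm1 and 0.95 for Mawbp in Long-Evans (6 groups), and 0.43 for Pmm1 and 0.90 for Mawbp in Han/Wistar (8 groups). In the dose arm alone r was 0.19 for Pmm1 and 0.12 for Mawbp in Long-Evans, and 0.56 for Pmm1 and 0.61 for Mawbp in Han/Wistar (8 groups each). At every time after 100 µg/kg Pmm1 was larger on the 7900HT than on the OpenArray, by a median of 1.63 in Long-Evans and 1.95 in Han/Wistar. The assay read for Pmm1 was Rn01502488_g1 and that for Mawbp Rn00593485_m1, which is listed under Pbld in a raw table, and the sources do not state whether it separates Pbld1 from its paralogue.

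Subtracting Mawbp from Pmm1 in the same group removes any shift that both share. On the OpenArray this difference was positive at 3 of 3 times up to 10 h in Long-Evans, from 0.69 to 1.40, and at 3 of 4 in Han/Wistar, from -0.03 to 0.96. From 96 h it was 0.56 and 1.51 in Long-Evans, and -0.61, -0.71 and -0.30 at 96, 240 and 384 h in Han/Wistar. Corn oil gave -0.15 and 0.06 at 96 and 240 h in Long-Evans, and -0.23, -0.07 and -0.50 at 96, 240 and 384 h in Han/Wistar. Beyond corn oil of the same time, Pmm1 was therefore ahead of Mawbp late in Long-Evans, while in Han/Wistar Mawbp was ahead at 96 and 240 h and Pmm1 at 384 h. On the 7900HT Pmm1 was above Mawbp at all 6 Long-Evans and all 8 Han/Wistar times, and at all 8 doses of each strain. At the lowest dose, 0.001 µg/kg, the difference was already 1.43 for Long-Evans liver and 1.07 for Han/Wistar liver. No response to dose is therefore read from its sign. Han/Wistar corn oil gave -0.83, -1.02 and -0.85 at 96, 240 and 384 h, against 0.63, 0.71 and 1.15 under TCDD. Long-Evans corn oil gave -0.68 and 0.33 at 96 and 240 h, against 2.27 and 3.09. Pmm1 was thus ahead beyond corn oil, whereas for Han/Wistar the OpenArray had Mawbp ahead at 96 and 240 h.

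Tiparp encodes a member of the poly-ADP-ribose polymerase family that represses the AHR in feedback, and Ube4b a ubiquitin chain-elongation ligase. Over the 34 OpenArray groups of both strains, the targets whose values were most like those of Pmm1 were Tiparp, Ube4b and Nqo1. Each of these had a Pearson r of 0.89 with Pmm1. Those most like Mawbp were Nqo1 with 0.93, Ccbl1, a cysteine conjugate beta-lyase, with 0.91, and Aldh3a1 with 0.89. Pmm1 and Mawbp had an r of 0.81 with each other, which put Mawbp in place 12 for Pmm1 and Pmm1 in place 11 for Mawbp. On the 7900HT the pair had an r of 0.85, and there Mawbp was the target most like Pmm1. These r values are descriptions, as the groups of a strain share 1 control. Ranked by Spearman's rho, 1 of the 3 named for Pmm1 stayed among the top 3, namely Ube4b.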

How the data were processed

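Per the labels' protocols, total RNA of rat livers was copied into cDNA and amplified by real-time PCR with the OpenArray and the 7900HT. The authors deposited 1 value per gene and group, taken as a log2 fold change over the strain's corn oil group at 19 h, where every gene is 0. How reference genes, averages over animals and wells without amplification were treated is not given in the sources used here, and R 2.12.2 was used per the submitters' processing notes. The tables of cycle values have 304 columns whose animal codes match no sample label, so none was used, and the spread between animals and the depth per sample are unknown.

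Each value was joined to its group by strain, time and dose. Strain differences and dose trends were tested by exact two-sided permutation tests over groups with Benjamini-Hochberg adjustment at 0.05 over all targets of an instrument, and, for dose trends, of a strain. The p-values measure the spread between groups. The tests were run on simulated data before use. That simulation drew independent noise with no shared control group, unlike the deposited values, so it does not show how the tests perform on them. Named were Pmm1 and Mawbp, the 3 OpenArray targets most like each by Pearson's r, and measured members of fixed lists, with values for those a result turns on. The members, lists and tests were chosen with earlier results of these data known. Alternatives were centring each group on its mean or median over targets listed in every group, centring the 7900HT gene sets with 4 and 2 rows apart, joint adjustment, another correlation, times with a corn oil group only, each strain alone, doses of 1 µg/kg or more, and leaving out each group. Taking off the median of the other 2-row targets was added after the values had been seen. Promoters came from the RefSeq table of GRCr8, in which both genes matched. The software was scipy 1.17.1, numpy 2.4.6 and pandas 2.3.3 under Python 3.11.15, with matplotlib 3.10.9 for figures.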

Additional observations from a re-analysis of the deposited data

How the results depend on the processing

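Pmm1 and Mawbp at 100 µg/kg and 19 h stayed above 0 on both instruments under every centring tried, as did their time course means over corn oil. On the 7900HT, though, 100 µg/kg was the dose with the highest deposited value of each gene in each strain. There Mawbp in Long-Evans was below 0 at every other dose as deposited, with -2.47 at 10 µg/kg and -1.61 at 1000 µg/kg. Centring used the 47 OpenArray and 36 7900HT targets listed in every group. The OpenArray values centred on the group mean and on the group median were 0.34 and 0.77 for Pmm1 in Long-Evans, 0.37 and 0.99 for Pmm1 in Han/Wistar, 0.27 and 0.69 for Mawbp in Long-Evans, and 0.38 and 1.00 for Mawbp in Han/Wistar. On the 7900HT Pmm1 in Long-Evans was 2.17 centred on the median and 2.17 with the gene sets centred apart, Pmm1 in Han/Wistar 4.04 with the sets apart, Mawbp in Long-Evans 0.50 centred on the mean, 0.46 on the median and 0.46 with the sets apart, and Mawbp in Han/Wistar 2.44 with the sets apart.

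The OpenArray time course means over corn oil, centred on the mean and the median, were 1.25 and 1.71 for Pmm1 in Long-Evans, 0.38 and 0.96 for Pmm1 in Han/Wistar, 0.38 and 0.84 for Mawbp in Long-Evans, and 0.11 and 0.70 for Mawbp in Han/Wistar. With only times that have a corn oil group they were 1.17 for Pmm1 in Han/Wistar, 1.62 for Mawbp in Long-Evans and 1.26 for Mawbp in Han/Wistar. On the 7900HT they were 2.85 centred on the mean for Pmm1 in Long-Evans, 4.23 with the sets apart for Pmm1 in Han/Wistar, and for Mawbp in Long-Evans 0.32 centred on the mean, 0.49 on the median and 1.62 with only times that have a corn oil group. Leaving out each group gave OpenArray means of 2.08 to 2.42 for Pmm1 in Long-Evans, lowest without 240 h, 1.33 to 1.50 for Pmm1 in Han/Wistar, 1.30 to 1.53 for Mawbp in Long-Evans and 1.06 to 1.22 for Mawbp in Han/Wistar.

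The 7900HT dose trend, passed by 1 target in Han/Wistar and 0 in Long-Evans, was passed in Han/Wistar by 7 centred on the mean, 6 on the median, 0 with Pearson's r, 3 under joint adjustment and 0 to 0 without any 1 dose, and in Long-Evans by 3 centred on the median, 7 with the sets apart and 1 under joint adjustment. On the OpenArray 29 targets passed in Han/Wistar, 7 to 28 without single doses (7 without 1, 13 without 0.1 and 16 without 0.01 µg/kg), and 39 in Long-Evans, 24 to 42 (24 without 1 µg/kg). Higher and lower calls were 26 and 13 in Long-Evans, 10 and 19 centred on the mean, 18 and 17 on the median, and in Han/Wistar 19 and 10, 8 and 20, and 14 and 17. The strain trend over dose was passed by 0 targets, by 1 on the OpenArray centred on the median and 1 with Pearson's r, and by 3 on the 7900HT with the sets apart; strain counts were 0 to 0 without single groups.

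Signs turned for the 7900HT strain difference of Pmm1 over time, at -0.69 centred on the median, -1.24 with the sets apart and, leaving out single groups, -0.11 (without corn oil at 96 h) to 0.79. They turned for the 7900HT strain trend over dose of Pmm1, at 0.11 centred on the mean, and of Mawbp, at 0.18 centred on the mean and, leaving out single doses, -0.54 to 0.086 (without 1000 µg/kg). For Mawbp on the OpenArray that trend was -0.43 to 0.20 (without 1000 µg/kg). The 7900HT rho of Mawbp over dose in Long-Evans became 0.90 with the median of the other 2-row targets taken off. Causes were not tested. Neither gene passed a strain test under any setting, but over time the floor on p left hardly any target able to pass. No paired analysis was possible because the deposited fold changes hold 1 value per group and carry no replicate number.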

Other observations

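Limited to groups at 1 µg/kg or more, the instruments had a Pearson r of 0.81 in Long-Evans (10 groups) and 0.34 in Han/Wistar (12 groups) for Pmm1, and of 0.46 in Long-Evans and 0.63 in Han/Wistar for Mawbp. In the Long-Evans time course r for Mawbp was 0.95 as deposited and -0.03 with each group centred on its median, over the same 6 groups. For Pmm1 it was 0.90 as deposited and 0.72 centred. On the 7900HT the target most like Mawbp over the 34 groups was Ccbl1, the cysteine conjugate beta-lyase, with an r of 0.95, and with each group centred on its median it was again Ccbl1, with 0.91.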
